A study of Mus musculus with 11 samples.

Results

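The genes described here are 38 cell cycle and replication genes of the mouse lung, out of 31053 genes in the count tables. They were chosen by name: each is a row whose gene symbol equals a listed member, and all 38 were found. By role they comprise 8 mitotic entry kinases and cyclins, 5 genes of the spindle checkpoint and the anaphase-promoting complex, 10 genes of the kinetochore, spindle and cytokinesis, 4 chromatin and proliferation markers, 7 replication licensing and clamp genes, and 4 genes of nucleotide supply. Their levels were followed in 11 libraries of droplet-based 3′ single-cell RNA sequencing of dissociated whole lung. A level is given as counts per 1000000 UMIs (CPM), where a UMI is a unique molecular identifier marking a captured RNA molecule.

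The libraries fall into 4 genotype groups of old mice. WT is wild type (+/+) with 1 library. p21Het is heterozygous for p21 (+/-) with 3 libraries, p21mTert (+/mTert) has 5 and p21mTertCD (+/mTertCD) has 2. In the p21mTert allele the mouse telomerase gene is expressed from the p21 (Cdkn1a) locus, so that the p21 promoter decides which cells make it, and mTertCD is the catalytically dead form. All 3 mutant groups are thus heterozygous at p21, and only WT has an unmodified pair of alleles. The age label is 18 months in 9 libraries, 19 months in p21Het_1 and 20 months in p21mTert_1, whereas all titles say 18 months. The labels do not say whether each library is a separate animal, and p-values below measure the spread between libraries.

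Cells pass through the cycle by switching programmes of genes on and off. Before and during DNA synthesis, E2F factors drive the MCM helicase, the PCNA clamp and the enzymes of nucleotide supply, and later the cyclin B-CDK1 kinase and its spindle and checkpoint partners are made for mitosis. The p21 protein inhibits cyclin-dependent kinases, and through RB-family and DREAM repressor complexes it keeps both programmes low. In the adult lung most cells are at rest, and dividing cells are found mainly among immune and progenitor cells.

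The promoter sequences of 7 members are shown because these genes mark the 2 programmes followed below: Mki67 and Top2a, which served to find cycling cells, the mitotic genes Cdk1, Ccnb1 and Cdc20, and the licensing genes Mcm5 and Mcm6. Each line gives the 250 bases before the annotated start, 5′ to 3′ on the gene's own strand, from RefSeq on build GRCm38.p6. Capitals mark the CHR element (TTTGAA or TTTAAA), the CCAAT box and the E2F element (TTTCCCGC, TTTCGCGC, TTTGCCGC or TTTGGCGC), each on either strand, and neighbouring or overlapping matches run together.
Mki67 (chr7:135716380-135716629, minus strand): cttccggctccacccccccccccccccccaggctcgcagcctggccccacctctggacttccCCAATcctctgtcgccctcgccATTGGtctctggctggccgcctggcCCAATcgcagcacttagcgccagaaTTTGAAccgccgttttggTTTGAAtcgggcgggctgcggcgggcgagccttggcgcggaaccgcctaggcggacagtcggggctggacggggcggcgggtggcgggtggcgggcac
Top2a (chr11:99024190-99024439, minus strand): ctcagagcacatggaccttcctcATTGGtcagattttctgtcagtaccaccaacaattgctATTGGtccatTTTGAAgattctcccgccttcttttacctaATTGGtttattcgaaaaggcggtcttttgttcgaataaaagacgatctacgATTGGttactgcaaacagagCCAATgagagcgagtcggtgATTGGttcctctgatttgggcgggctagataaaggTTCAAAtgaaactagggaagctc
Cdk1 (chr10:69352913-69353162, minus strand): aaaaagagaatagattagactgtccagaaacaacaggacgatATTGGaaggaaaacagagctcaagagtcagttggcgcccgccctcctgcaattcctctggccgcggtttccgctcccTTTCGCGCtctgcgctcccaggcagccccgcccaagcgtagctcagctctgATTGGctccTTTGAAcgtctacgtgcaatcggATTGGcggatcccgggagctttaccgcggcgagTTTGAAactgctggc
Ccnb1 (chr13:100786487-100786736, minus strand): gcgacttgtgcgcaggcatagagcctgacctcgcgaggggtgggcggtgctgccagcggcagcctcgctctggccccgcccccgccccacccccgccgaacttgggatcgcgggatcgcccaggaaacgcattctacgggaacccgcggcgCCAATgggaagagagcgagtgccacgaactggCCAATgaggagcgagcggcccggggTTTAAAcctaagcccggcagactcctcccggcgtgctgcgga
Cdc20 (chr4:118437344-118437593, minus strand): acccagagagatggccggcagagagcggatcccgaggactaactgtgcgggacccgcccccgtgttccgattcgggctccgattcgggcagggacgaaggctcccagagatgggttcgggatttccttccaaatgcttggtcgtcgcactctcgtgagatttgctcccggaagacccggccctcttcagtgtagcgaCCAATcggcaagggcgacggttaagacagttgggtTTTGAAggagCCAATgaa
Mcm5 (chr8:75109259-75109508, plus strand): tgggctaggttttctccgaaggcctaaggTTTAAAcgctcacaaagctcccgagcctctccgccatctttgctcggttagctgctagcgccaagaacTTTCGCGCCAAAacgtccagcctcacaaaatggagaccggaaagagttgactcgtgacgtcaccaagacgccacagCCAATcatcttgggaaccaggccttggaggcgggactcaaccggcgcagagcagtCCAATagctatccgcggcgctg
Mcm6 (chr1:128359706-128359955, minus strand): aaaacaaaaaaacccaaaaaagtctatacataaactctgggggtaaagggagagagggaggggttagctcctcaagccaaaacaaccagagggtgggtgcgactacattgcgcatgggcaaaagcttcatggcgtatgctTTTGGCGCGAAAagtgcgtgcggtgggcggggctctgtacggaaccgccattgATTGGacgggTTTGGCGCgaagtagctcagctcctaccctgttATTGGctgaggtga

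In windows of 300 bases, from 250 before to 50 after the start, a promoter was held by the table for 31 of the 38 members. Where a gene had several starts, the start listed before the others was taken. Ccna2, Aurkb, Tpx2, Kif20a, Mcm4, Stmn1 and Pbk were not matched. A CHR element lay in 23 of the 31 (74.2%) and in 27.8% of the 27025 genes of the table. A CCAAT box lay in 87.1% of member promoters and 37.9% of all, and at least 2 CCAAT boxes in 58.1% and 12.2%. An E2F element lay in 16.1% and 2.32%. The 2 programmes differed in these letters: the CHR element was present in 19 of the 21 mitotic and marker genes and in 4 of the 10 replication and nucleotide genes, whereas the E2F element was present in 1 of 21 and 4 of 10. Cdk1 was the mitotic gene with an E2F element. Nusap1 and Tyms held none of the 3 motifs in this window. These are matches of letters and are given as a description.

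Barcodes were kept when they held 1000 to 30000 UMIs, of which no more than 14% were mitochondrial, which left 69267 of 81983. The libraries held 42038434 to 85988955 UMIs in all, and median UMIs per kept cell ran from 4133 to 6454. WT_1, p21Het_1 and p21mTert_1 came in the earlier deposit and had median mitochondrial shares of 6.30% to 6.58%, against 2.82% to 4.28% in the 8 later libraries. Some cell barcodes recurred: 617 were present in 2 or more libraries, in 1238 cells or 1.79% of the kept ones, and 28 of these were cycling. p21mTertCD_1 stands apart from the other libraries. In it 33.7% of kept cells were T cells, against 12.3% to 24.9% elsewhere, and 1.59% were B cells, against 11.6% to 37.8%. The main differences that involve p21mTertCD are given with and without it. Levels of Tert, a check of the labels, were 1.13 CPM in WT, 0.772, 0.842 and 0.544 in the p21Het libraries, 2.01, 3.28, 3.07, 2.52 and 2.00 in the p21mTert libraries, and 2.59 and 1.90 in the p21mTertCD libraries. Every p21mTert and p21mTertCD library was above every WT and p21Het library. Cdkn1a was between 118 and 187 CPM in the 11 libraries, and its groups overlapped.

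A cell was called cycling when it held at least 2 UMIs of Mki67 and Top2a together. Mki67 coats mitotic chromosomes and Top2a is the topoisomerase that untangles sister chromatids. By this rule 1715 of 69267 cells were cycling, and 683 of these held exactly 2 UMIs of the pair. A further 2787 cells held 1 UMI of the pair and were not called. The cycling share was 1.39% in WT (exact 95% binomial interval 1.10% to 1.74%, counting error only). In p21Het it was 1.17%, 3.14% and 1.69%, in p21mTert 1.69%, 2.09%, 3.06%, 2.16% and 1.82%, and in p21mTertCD 5.96% and 2.36%. The p21Het and p21mTert libraries covered nearly the same range, and p21mTertCD_1 alone lay above all other libraries.

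The group means were 2.00% ± 1.02 for p21Het (SD of 3 libraries), 2.16% ± 0.536 for p21mTert (SD of 5) and 4.16% ± 2.55 for p21mTertCD (SD of 2). p21mTert exceeded p21Het by 0.160 percentage points (2-sided exact permutation test, p = 0.804, adjusted p = 1 over 33 tests). This difference had the opposite sign without p21Het_1 (-0.254) and without p21mTert_3 (-0.0640), and in the later deposit alone (-0.135). p21mTert was 2.00 points below p21mTertCD (exact permutation p = 0.0952, adjusted p = 0.846), and 0.196 below it without p21mTertCD_1 and 3.80 below it without p21mTertCD_2. p21mTertCD minus p21Het was 2.16 points (exact permutation p = 0.3, adjusted p = 0.846), 0.356 points without p21mTertCD_1 and 3.96 without p21mTertCD_2. The lowest p reachable with these numbers of libraries is 0.0179, 0.0476 and 0.1, so the last comparison cannot reach 0.05. None of the 3 differences was larger than the spread between libraries.

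**Figure D1:**
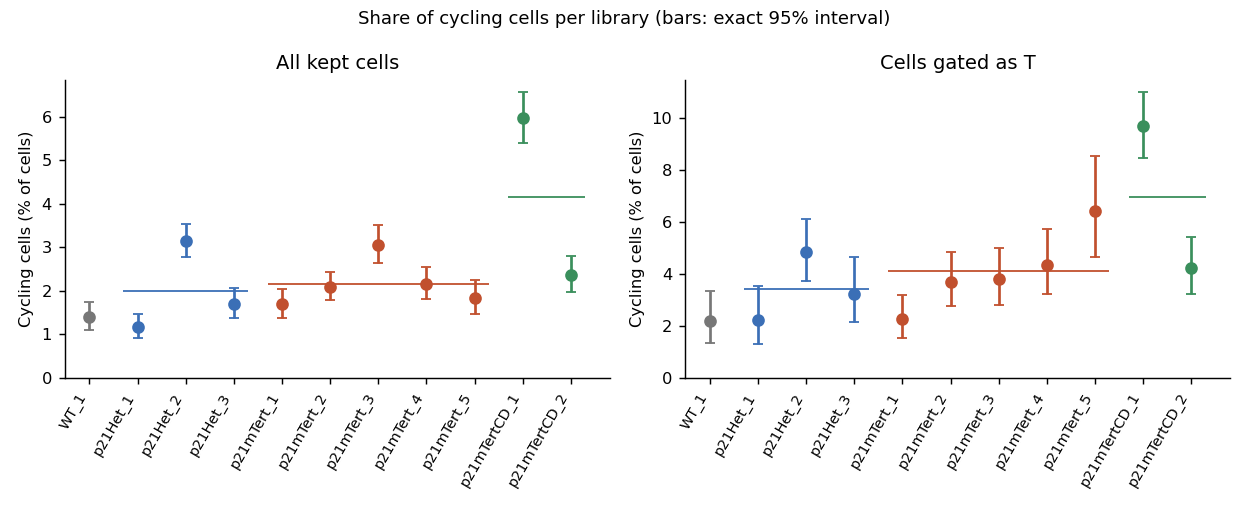
Cycling cells as a percentage of all kept cells (left) and of cells gated as T (right) in each library; points are libraries, bars exact 95% binomial intervals and horizontal lines group means. p21mTertCD_1 is the highest library in both panels, at 5.96% of all cells and 9.68% of T cells, and the p21Het and p21mTert libraries overlap.

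Lineages were gated by counting markers. A cell took the lineage with the most detected of its 8 markers, with at least 3 and no tie, and cells with 3 markers of 2 compartments were set aside as mixed. This stands in for a doublet caller, which was not run. The gate placed 59408 cells (85.8%), 5338 (7.71%) were mixed and 4521 were not placed. The median gated cell held 5 to 8 of its own markers in 11 lineages and 3 of 7 in the erythroid one, where 53.9% of cells sat at the gate minimum. In the other lineages 0.825% to 14.2% of cells did.

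T cells supplied 623 of the 1715 cycling cells (36.3%), B cells 162, dendritic cells 157, alveolar macrophages 152 and monocyte-macrophages 108. Mixed cells made up 246. Endothelial cells, the cells of the capillaries named in the series title, supplied 27, epithelial cells 26 and mesenchymal cells 1. Neutrophils, which leave the marrow after their last division, supplied 15 of 5698 cells and are given as a cell type that should hold few dividing cells.

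As means of 11 libraries, the cycling share was 12.7% ± 5.30 (SD) in plasma cells, 12.6% ± 6.10 in dendritic cells, 6.51% ± 2.86 in alveolar macrophages and 4.26% ± 2.20 in T cells. It was 2.90% ± 1.74 in NK cells, 1.79% ± 0.429 in monocyte-macrophages, 1.32% ± 0.851 in B cells and 0.801% ± 0.989 in erythroid cells. Epithelial cells were at 0.590% ± 0.479, endothelial cells at 0.365% ± 0.196, neutrophils at 0.306% ± 0.336 and mesenchymal cells at 0.0305% ± 0.101. The endothelial and neutrophil shares lay within their spread of each other, at median depths of 3512 and 3849 UMIs in the other cells of each lineage. The cells called cycling in both lineages carried other mitotic genes: the 8 entry kinases and cyclins summed, over the pooled libraries, to 567.9 CPM (exact Poisson 95% interval 468 to 683, counting error only) in cycling endothelial cells and 3.41 in the other endothelial cells. In neutrophils the sum was 508 CPM (424 to 605) in cycling cells, whose median was 16699 UMIs, and 4.50 in the others. The source of these cells was not tested. Plasma cell shares rest on 12 to 219 cells a library. Erythroid cells made up from 0.0732% of kept cells in WT_1 to 6.25% in p21Het_2. WT_1 held 4 erythroid cells, of which the thinning described below left out 3.

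The median depth of other cells ran from 3512 UMIs in endothelial cells to 17966.5 in plasma cells. Cycling cells had a median of 14446 UMIs and other cells 5164. Each cell was therefore thinned to 2000 UMIs, which left out 4894 shallower cells (303 WT, 1605 p21Het, 2239 p21mTert and 747 p21mTertCD). The order then became dendritic cells 4.57% ± 2.89 (SD over 11 libraries), alveolar macrophages 2.08% ± 1.16, plasma cells 1.53% ± 2.20, T cells 1.52% ± 0.789, NK cells 1.15% ± 1.19, B cells 0.572% ± 0.584, monocyte-macrophages 0.564% ± 0.309, erythroid cells 0.408% ± 0.644, endothelial cells 0.142% ± 0.156, neutrophils 0.0941% ± 0.159, epithelial cells 0.0519% ± 0.122 and mesenchymal cells 0. After thinning, no lineage differed from its neighbour in this order beyond the spread between libraries (exact sign-flip permutation tests over 11 libraries, smallest adjusted p = 0.290). Dendritic cells exceeded alveolar macrophages in 9 of 11 libraries, by 2.49 points. The rule of 2 UMIs was kept after thinning, so calls were lost. The mean share over all kept cells fell from 2.41% to 0.860%. Cells with few UMIs of the pair among many others lose the call most readily. Cycling plasma cells had a median of 3 UMIs of the pair and 23273 in all, epithelial cells 2 and 20612.5, and endothelial cells 3 and 6441. The part of this loss in the order was not tested. Only neighbours in the order were tested. Without thinning, where depth differs between lineages, 2 of the neighbours in that order passed: dendritic cells exceeded alveolar macrophages by 6.13 points, in 9 of 11 libraries, and alveolar macrophages exceeded T cells by 2.25 points, in 10 of 11 (exact sign-flip permutation tests, adjusted p = 0.0430 for both).

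**Figure D2:**
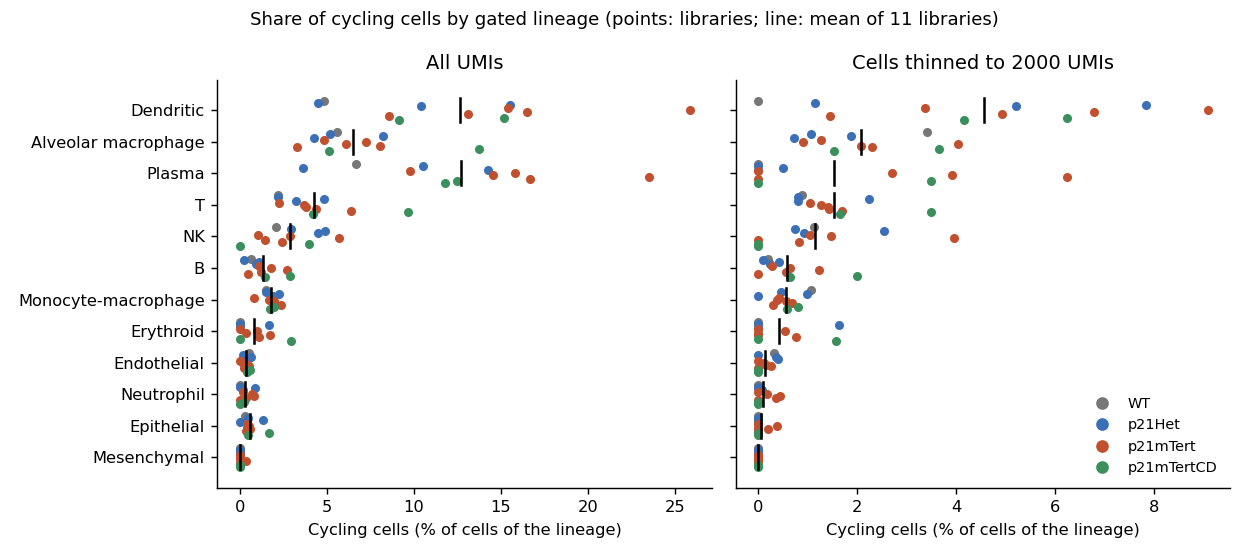
Cycling cells as a percentage of each gated lineage, from all UMIs (left) and after thinning every cell to 2000 UMIs (right); points are libraries coloured by group and black lines are means of 11 libraries. Dendritic cells lead after thinning at 4.57%, plasma cells drop from 12.7% to 1.53%, and endothelial, epithelial, neutrophil and mesenchymal cells stay near 0. The rule of 2 UMIs was kept after thinning, and the part of lost calls in the order was not tested.

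Within lineages, T cells of p21mTertCD_1 held the most cycling cells, 214 of 2211 (9.68%). The other p21mTertCD library had 4.23%, p21mTert had 2.25%, 3.70%, 3.79%, 4.36% and 6.40%, p21Het had 2.22%, 4.83% and 3.23%, and WT had 2.18%. The p21mTertCD and p21mTert ranges overlapped, and p21mTertCD minus p21Het was 3.53 points (exact permutation p = 0.2, adjusted p = 0.846). It was 0.801 points without p21mTertCD_1 and 6.25 without p21mTertCD_2. After thinning to 2000 UMIs, p21mTertCD_1 still had the highest T cell share, 3.50%, against 0.796% to 2.23% elsewhere. In T cell subsets chosen after the data were seen, cells with Cd4 and no Cd8a or Cd8b1 UMI had a cycling share of 6.87% ± 2.45 (SD, n = 11), Cd8 cells without Cd4 4.25% ± 2.88, and cells with neither 1.66% ± 0.741. Both the subset and the cycling call rest on detected UMIs and these shares were not thinned, so the part of depth in their order was not tested. p21mTertCD_1 was the highest library in each subset, at 11.3% of Cd8 cells beside 8.04% in the next library, 10.0% of Cd4 cells beside 9.56%, and 3% of cells with neither beside 2.76%.

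In dendritic cells the share was 10.2% ± 5.52 for p21Het (SD of 3 libraries), 15.9% ± 6.34 for p21mTert (SD of 5) and 12.2% ± 4.25 for p21mTertCD (SD of 2), with p21mTert minus p21Het 5.73 points (exact permutation p = 0.268, adjusted p = 0.846). It was 2.90 points without p21Het_1 and 8.42 without p21Het_2. Alveolar macrophages were at 5.87% ± 2.07 in the p21Het libraries, 5.91% ± 1.92 in the p21mTert libraries, and 13.8% and 5.11% in the p21mTertCD libraries, where the difference from p21Het had the opposite sign without p21mTertCD_1 (-0.761 points). Endothelial cells were at 0.375% in the p21Het libraries, 0.288% in the p21mTert libraries and 0.469% in the p21mTertCD libraries, or 1 to 7 cycling cells a library where there were any. Counting any cell with 1 or more UMI of the pair, p21mTert endothelium was 1.21 points below p21mTertCD (exact permutation p = 0.0476, the smallest possible and not adjusted). Among the alternative settings for cycling shares, only this 1 passed 0.05. With cells thinned to 2000 UMIs the same difference had the opposite sign (0.104 points, exact permutation p = 0.381). B cells were the only tested lineage in which 2 groups did not overlap: 0.223%, 1.11% and 0.917% in the p21Het libraries against 2.88% and 1.44% in the p21mTertCD libraries (1.41 points, exact permutation p = 0.1, adjusted p = 0.846). The 2.88% is p21mTertCD_1 and rests on 3 of 104 B cells, and without it the difference was 0.691 points. In the 10 lineages tested no contrast reached an unadjusted p of 0.05, and the smallest adjusted p was 0.846.

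How far each member is bound to cycling cells was then described from the place of its UMIs. Cycling cells held 4.51% ± 2.16 of all UMIs (SD, n = 11), so a gene with no preference would have that share of its UMIs there. The share was 95.1% ± 3.02 for Pbk, a mitotic kinase, 93.6% ± 2.42 for Hmmr, a spindle-assembly protein, and 90.9% ± 3.27 for Ccna2, the cyclin A of dividing cells. For Mki67 (89.3%) and Top2a (88.0%) a high share follows from their use in choosing the cells. The rule also favours genes made in the same cells as this pair. Dividing cells with too few UMIs of the pair counted as other cells. The part of the rule in the order of genes, here and below, was not tested. Birc5, the survivin subunit of the chromosomal passenger complex, reached 88.8% ± 3.11, Cenpf 88.3% ± 4.31, Kif11, the motor that separates the spindle poles, 82.3% ± 7.76, and Cdk1 81.4% ± 6.15. Ccnb2 (82.1%), Plk1 (81.7%), Nusap1 (79.5%), Cenpe (77.5%), Ccnb1 (75.3%), Tpx2 (74.5%) and Kif20a (71.9%) followed.

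Other mitotic genes had more of their UMIs elsewhere. Ube2c, the ubiquitin-conjugating enzyme of the anaphase-promoting complex, had 70.8% ± 18.9, Aurkb 61.8% ± 13.7, Bub1 57.3% ± 19.4, Cdc20, the activator of that complex, 57.2% ± 15.2, Prc1 56.7% ± 11.7, Aurka 46.6% ± 14.5 and Bub1b 38.1% ± 11. At the low end of the mitotic genes were Cenpa, the centromeric histone, with 21.7% ± 12.5 and Kif23, a motor of the midbody, with 20.7% ± 11.8.

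Replication genes formed the other end of this order, and the part of the cycling rule in their place was not tested. Mcm5 had 34.8% ± 12.0 of its UMIs in cycling cells, Mcm3 25.5% ± 9.01, Mcm7 25.3% ± 10.5, Mcm2 21.5% ± 8.45, Mcm6 20.3% ± 6.68, Mcm4 15.7% ± 6.93 and Pcna, the sliding clamp, 15.0% ± 6.06. Among the nucleotide genes, Rrm2, the cell-cycle-controlled subunit of ribonucleotide reductase, had 77.3% ± 5.72, whereas its partner subunit Rrm1 had 27.7% ± 9.71, with the thymidine enzymes Tk1 at 44.4% ± 12.8 and Tyms at 33.5% ± 10.6. Hmgb2 (19.4% ± 9.03) and Stmn1 (39.0% ± 14.1) are named as proliferation markers and had most of their UMIs outside cycling cells.

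**Figure D3:**
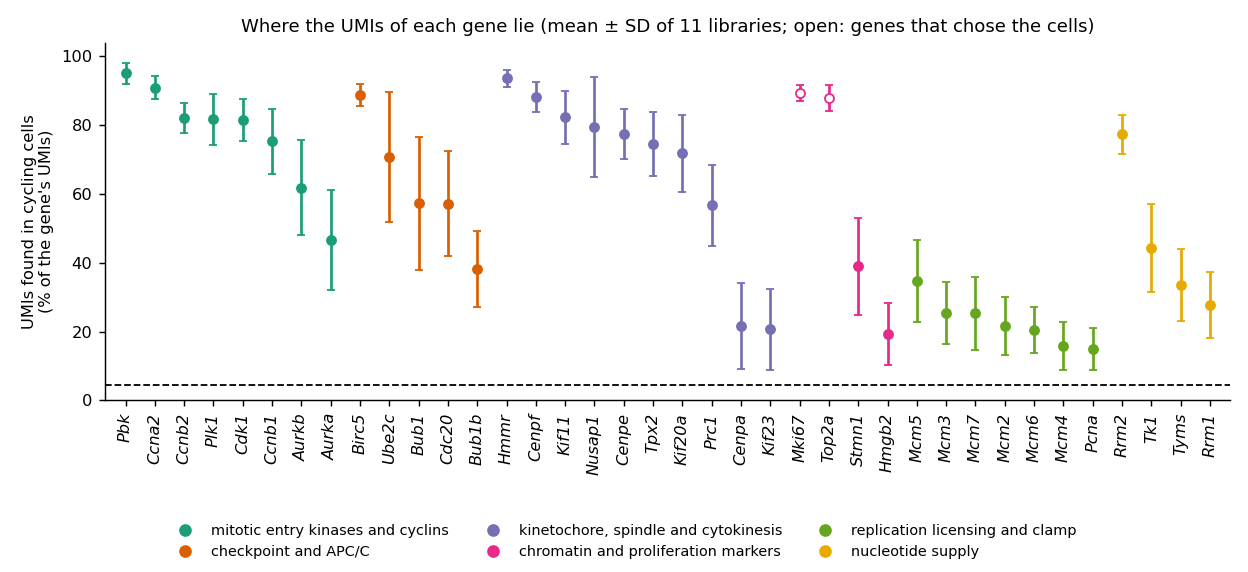
Percentage of each gene's UMIs that lie in cycling cells, as mean and SD of 11 libraries, coloured by role; open points are Mki67 and Top2a, which chose the cells, and the dashed line is the share of all UMIs in cycling cells. Pbk, Hmmr and Ccna2 lie at 90.9% or higher, and the replication licensing genes lie at 34.8% or lower. The part of the cycling rule in this order was not tested.

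The level in cycling cells was compared with other cells weighted to the same lineages, with no test. Cdk1 stood at 94.5 ± 15.8 CPM in cycling and 1.26 ± 0.540 in other cells (SD, n = 11), a ratio of 74.9. Rrm2 had a ratio of 61.2, Cdc20 40.3, Stmn1 23.2, Mcm5 9.25, Hmgb2 5.00, Cenpa 4.57, Mcm6 4.20, Pcna 3.48 and Mcm4 3.46. The 36 members that did not choose the cells were all higher in cycling cells in each of the 11 libraries. The share of all genes with this trait was not computed, and Cdkn1a, which is not a member, was also higher in all 11. Genes on none of the lists were ranked by the same ratio where they had at least 200 UMIs in cycling cells. Pimreg had no finite median ratio, since 6 libraries held none of its UMIs in the other cells of the lineages weighted. Among the other 8140 genes, the 10 genes of highest median ratio were Kif18b, Ska1, Kif14, Esco2, Pclaf, Iqgap3, Hist1h2af, Hist1h3c, Nuf2 and Neil3, from 452 for Kif18b to 131 for Neil3. Pclaf, a PCNA-binding protein, was at 295 ± 46.7 CPM in cycling and 1.43 ± 0.437 in other cells.

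Kif23 and Hmgb2 were also followed in cells not called cycling, and Kif23 was chosen for this after its values were seen. In neutrophils outside the cycling call Kif23 was at 193 ± 38 CPM (SD, n = 11), and in such T cells at 8.95 ± 2.74. Neutrophils of both kinds held 4741 of its 11969 UMIs. Its highest library over all cells was p21Het_3 with 39.8 CPM, where neutrophils made up 25.1% of kept cells, against 2.71% to 12.9% elsewhere. Within neutrophils outside the cycling call Kif23 was at 181 CPM in that library, inside the range of 122 to 248.8 of the other 10 libraries. The part of neutrophil share in its level over all cells was not tested. Hmgb2, a DNA-bending chromatin protein, was at 1300 ± 148 CPM in neutrophils and 518 ± 96.7 in T cells outside the cycling call. Mki67, which was used in making the call, was at 2.78 ± 1.19 CPM in those neutrophils.

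Levels in cycling cells were then set side by side by lineage, as means of 11 libraries with equal weight and with no test. The 8 entry kinases and cyclins summed to 575 ± 120 CPM (SD) in cycling T cells, 516 ± 285 in cycling alveolar macrophages, 272 ± 159 in dendritic cells and 99.9 ± 119 in plasma cells. The 7 licensing and clamp genes summed to 985 ± 199.8 in T cells, 691 ± 301 in alveolar macrophages, 687 ± 224 in dendritic cells and 140 ± 117 in plasma cells. In both sums every plasma cell value, at most 389 CPM, lay below every T cell value. The call asks for 2 UMIs at any depth, and 2 UMIs are a smaller CPM in a deeper cell. Cycling cells had median UMIs of 23273 in plasma cells, 21740.5 in alveolar macrophages, 20198 in dendritic cells and 9278 in T cells. The part of depth in these sums was not tested. Alveolar macrophages and dendritic cells overlapped each other and T cells. Many of these values rest on few cells: a library held 17 to 214 cycling T cells, 3 to 53 alveolar macrophages, 3 to 34 dendritic cells and 1 to 15 plasma cells.

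Levels over all kept cells were compared between genotypes, first for the genes that chose the cycling cells. Mki67 was at 15.1 CPM in WT, at 12.7, 37.1 and 14.8 in the p21Het libraries, at 13.5, 19.8, 36.0, 18.8 and 15.8 in the p21mTert libraries, and at 49.9 and 22.2 in the p21mTertCD libraries. Top2a was at 15.7 in WT, at 12.4, 35.2 and 15.4 in the p21Het libraries, at 16.6, 21.6, 39.0, 21.5 and 15.4 in the p21mTert libraries, and at 54.9 and 24.6 in the p21mTertCD libraries. For both genes p21Het_2, p21mTert_3 and p21mTertCD_1 were the high libraries, each in another group, and the groups overlapped except that p21mTertCD_1 exceeded all others. The edgeR log2 fold change of Mki67 was -0.12 (SE 0.48, adjusted p = 0.962) for p21mTert minus p21Het and 0.75 (SE 0.59, adjusted p = 0.858) for p21mTertCD minus p21Het. Without p21mTertCD_1 the latter was -0.02.

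Of the 23 genes in the mitotic roles, 20 had their highest level in p21mTertCD_1, whereas Pbk was highest in p21Het_2, Cenpa in WT_1 and Kif23 in p21Het_3. The share of all genes highest in p21mTertCD_1 was not computed. Cdk1, the kinase of mitotic entry, was at 4.52 CPM in WT, 3.57, 7.37 and 2.56 in the p21Het libraries, 3.94, 4.78, 6.84, 4.22 and 2.64 in the p21mTert libraries, and 11.2 and 4.57 in the p21mTertCD libraries. Ccnb1, its cyclin partner, was at 2.29 in WT, 2.19, 2.88 and 1.21 in the p21Het libraries, 2.24, 2.08, 2.86, 1.74 and 1.31 in the p21mTert libraries, and 6.41 and 2.35 in the p21mTertCD libraries. Ccnb1 was thus highest in p21mTertCD_1, whereas p21mTertCD_2 lay inside the range of the other groups. For p21mTert minus p21mTertCD its log2 fold change was -1.18 (SE 0.45, edgeR adjusted p = 0.258), and without p21mTertCD_1 it was -0.21.

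Aurkb, the kinase that corrects spindle attachments, was at 2.87 CPM in WT, 2.92, 3.75 and 2.50 in the p21Het libraries, 3.04, 2.37, 3.33, 2.94 and 1.71 in the p21mTert libraries, and 5.76 and 3.31 in the p21mTertCD libraries (p21mTert minus p21mTertCD, log2 -0.84, SE 0.31, edgeR adjusted p = 0.254; -0.33 without p21mTertCD_1). Aurka, which matures the spindle poles, was at 2.04 in WT, 1.59, 2.45 and 1.63 in the p21Het libraries, 1.36, 1.50, 2.06, 1.30 and 1.15 in the p21mTert libraries, and 3.01 and 1.58 in the p21mTertCD libraries. Aurka had the third smallest p among members for p21mTert minus p21Het (log2 -0.41, SE 0.32, edgeR adjusted p = 0.737), and its groups overlapped. Cdc20 was at 3.86 in WT, 3.50, 4.68 and 2.52 in the p21Het libraries, 3.73, 3.13, 5.55, 3.77 and 2.75 in the p21mTert libraries, and 7.46 and 3.71 in the p21mTertCD libraries. Here too only p21mTertCD_1 left the common range.

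The licensing genes had a narrower spread. Mcm6, a subunit of the replicative helicase, was at 24.5 CPM in WT, 22.7, 23.8 and 24.6 in the p21Het libraries, 25.9, 29.0, 32.0, 28.7 and 28.3 in the p21mTert libraries, and 39.5 and 33.2 in the p21mTertCD libraries. Its 3 mutant groups did not overlap, with p21Het lowest and p21mTertCD highest. It had the smallest p of all members in every contrast: log2 0.23 (SE 0.13, edgeR adjusted p = 0.686) for p21mTert minus p21Het, -0.41 (SE 0.15, edgeR adjusted p = 0.251) for p21mTert minus p21mTertCD, and 0.64 (SE 0.16, edgeR adjusted p = 0.308) for p21mTertCD minus p21Het. Without p21mTertCD_1 the last pair of values was -0.23 and 0.46, and none of the 3 passed the adjustment over 17503 genes. How many of all genes keep their groups apart like this was not counted, here and for the members below.

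Mcm7, of the same helicase, was at 18.5 CPM in WT, 16.3, 17.0 and 17.0 in the p21Het libraries, 18.7, 19.3, 22.2, 19.3 and 19.7 in the p21mTert libraries, and 22.5 and 22.4 in the p21mTertCD libraries, again with no overlap of the 3 mutant groups (p21mTertCD minus p21Het, log2 0.44, SE 0.14, edgeR adjusted p = 0.559; 0.39 without p21mTertCD_1). Mcm5 was at 11 in WT, 9.74, 10.6 and 8.49 in the p21Het libraries, 10.4, 8.45, 12.3, 9.90 and 9.79 in the p21mTert libraries, and 14.3 and 11.8 in the p21mTertCD libraries (p21mTertCD minus p21Het, log2 0.47, SE 0.19, edgeR adjusted p = 0.775; 0.27 without p21mTertCD_1). The p21mTert libraries of Mcm5 overlapped both other groups. T cells carried Mcm6 at 68.8 ± 14.6 CPM (SD, n = 11) and monocyte-macrophages at 11.8 ± 3.80, and T cells made up 12.3% to 15.5% of kept cells in p21Het, 13.9% to 22.1% in the p21mTert libraries and 24.9% to 33.7% in the p21mTertCD libraries. The part of T cell share in these differences was not tested. Within T cells, Mcm6 was at 51.4, 62.4 and 64.5 in the p21Het libraries, 51.7, 70.9, 77.7, 76.5 and 79.0 in the p21mTert libraries, and 99.7 and 71.0 in the p21mTertCD libraries, where p21mTert overlapped both other groups.

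Rrm2 was at 4.94 CPM in WT, 3.88, 8.17 and 3.71 in the p21Het libraries, 5.72, 4.49, 8.27, 4.61 and 4.96 in the p21mTert libraries, and 12.8 and 5.11 in the p21mTertCD libraries. Stmn1, which destabilizes microtubules, was at 84.0 in WT, 74.0, 76.8 and 45.5 in the p21Het libraries, 70.2, 71.5, 88.9, 76.3 and 58.3 in the p21mTert libraries, and 75.0 and 70.6 in the p21mTertCD libraries. Rrm2 was highest in p21mTertCD_1, p21mTert_3 and p21Het_2, the libraries in which Mki67 was highest. Stmn1 was not: its p21mTertCD libraries lay in the middle of the others. Of the 38 members, 31 had their highest level in p21mTertCD_1. The share of all genes highest in that library, which also stands apart in its T and B cell shares, was not computed. The spread over the 10 mutant libraries, as a coefficient of variation, was 9.97% for Pcna, 11.2% for Mcm2 and 11.7% for Mcm7, and rose to 62.3% for Tpx2, 63.2% for Hmmr and 79.2% for Plk1, the polo-like kinase.

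**Figure D4:**
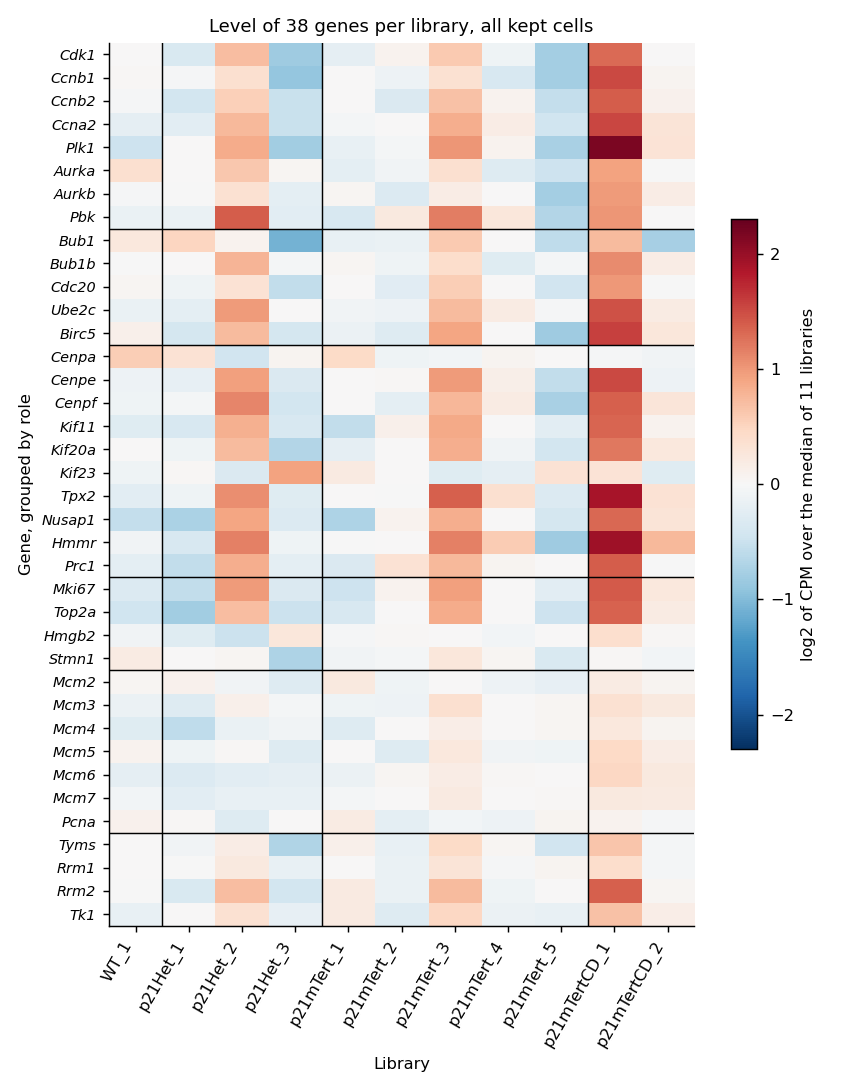
Level of each member per library over all kept cells, as log2 of CPM over the gene's median of 11 libraries; rows are genes grouped by role and columns are libraries grouped by genotype. Of the 23 genes in mitotic roles, 20 are highest in p21mTertCD_1, and Pcna, Mcm2 and Mcm7 vary least across the mutant libraries. The share of all genes highest in p21mTertCD_1 was not computed.

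In the edgeR fits over all kept cells no member was called at an adjusted p under 0.05 in any contrast. For p21mTert minus p21Het 0 of 38 were called beside 0.0114% of 17503 genes tested, with 0 members and 7.2% of all genes at an unadjusted p under 0.05, and 0 members and 0.177% of genes called by DESeq2. For p21mTert minus p21mTertCD 0 were called beside 0.00571% of all genes, with 6 members and 16% of all genes at an unadjusted p under 0.05, and 0 members and 3.35% of genes by DESeq2. For p21mTertCD minus p21Het 0 were called beside 0.12%, with 3 members and 6.26% of all genes at an unadjusted p under 0.05, and 0 members and 1.04% of genes by DESeq2. The shares of members at an unadjusted p under 0.05 were thus near or below those of all genes. The medians of the 38 log2 fold changes were -0.02, -0.74 and 0.61, beside 0.01, 0.02 and -0.03 for all genes tested. Without p21mTertCD_1 the 2 medians that involve p21mTertCD were -0.09 and 0.07. The comparisons share libraries, so their values are not independent. By role, the median for p21mTertCD minus p21Het was 0.89 for the entry kinases and cyclins, 0.72 for kinetochore, spindle and cytokinesis genes, 0.63 for checkpoint genes, 0.47 for nucleotide supply and 0.42 for licensing and clamp genes. Without p21mTertCD_1 these medians were 0.09, -0.11, -0.18, -0.02 and 0.27. For p21mTert minus p21Het the role medians ran from -0.10 for checkpoint genes to 0.06 for the markers.

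A pair of wider lists was read from the same fits. Of 35 cell-cycle regulators (D and E cyclins, CDK inhibitors, the RB and E2F families and DREAM subunits) and of 24 further replication genes (origin, GINS and polymerase genes), 0 were called in any contrast of all kept cells. At an unadjusted p under 0.05 there were 2, 8 and 7 regulators and 0, 2 and 3 replication genes in the order of contrasts above, beside the same 7.2%, 16% and 6.26% of all genes. The median log2 fold changes were -0.02, -0.12 and 0.12 for the regulators and 0.07, -0.19 and 0.23 for the replication genes. Without p21mTertCD_1 the last pair of values was -0.02 and -0.05 for the regulators and -0.01 and 0.03 for the replication genes.

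**Figure D5:**
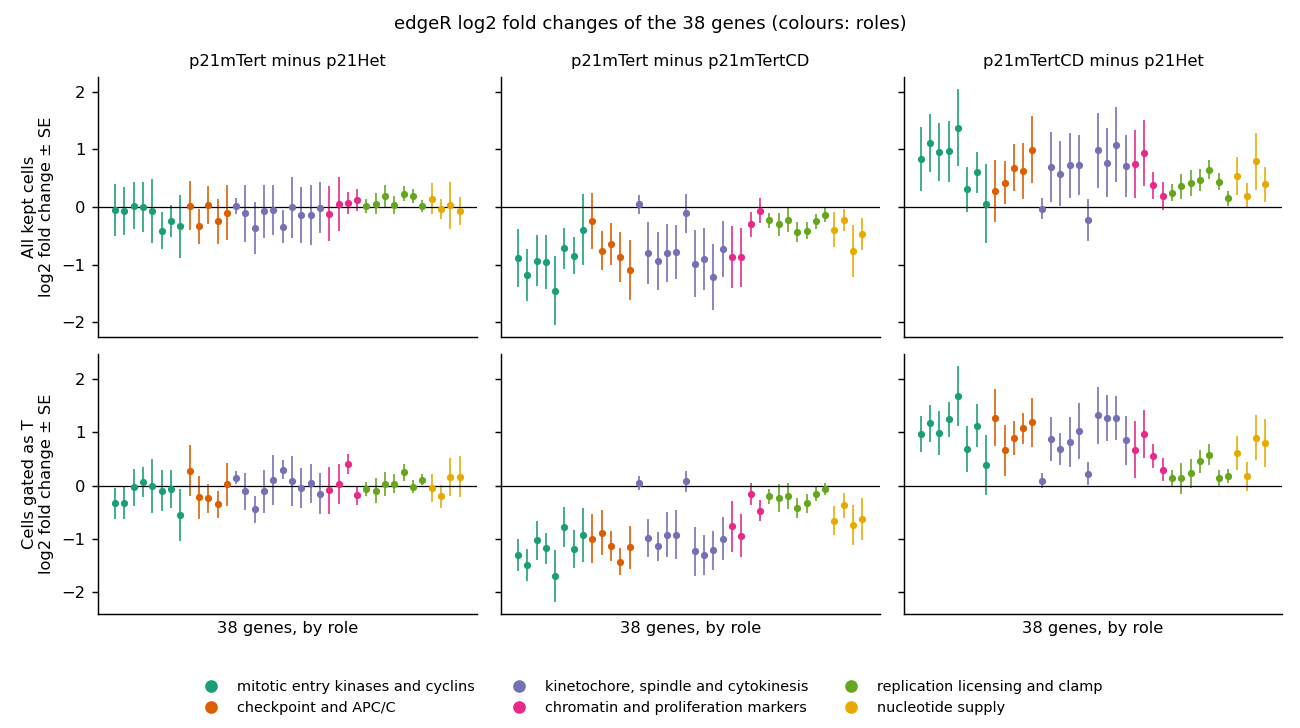
edgeR log2 fold changes with SE of the 38 members, coloured by role, for 3 contrasts (columns) in all kept cells (top) and T cells (bottom). p21mTert and p21Het differ little, with medians of -0.02 and -0.04. For p21mTert minus p21mTertCD, 37 of 38 members in all kept cells and 36 in T cells lie below 0. These values move towards 0 without p21mTertCD_1, and the share of all genes below 0 is not given.

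Within gated lineages the fits called 0 members in all 6 lineages tested. In T cells, where all 38 were tested, the contrasts, in the order given above, called 0.0332%, 0.0498% and 0.291% of 12043 genes. There 0, 20 and 16 members had an unadjusted p under 0.05, beside 3.83%, 11.6% and 15% of all T cell genes, and DESeq2 called 0, 5 and 2 members beside 0.108%, 1.25% and 2.82% of genes. The median log2 fold changes of the members were -0.04, -0.92 and 0.80. All 38 were above 0 for p21mTertCD minus p21Het, and 26 of 38 were without p21mTertCD_1, with a median of 0.16. For p21mTert minus p21mTertCD the median without it was -0.12. The share of all T cell genes above 0 is not given beside these counts. Without p21mTertCD_2, so that p21mTertCD_1 stands alone and is assumed to vary like the other groups, edgeR called 18 members lower in p21mTert than in p21mTertCD and 17 higher in p21mTertCD than in p21Het. In the same directions these fits called 4.94% and 5.72% of 12643 genes.

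Ube2c had the smallest p in T cells for p21mTert minus p21mTertCD. It was at 10.8 CPM in WT, 24.7, 23.2 and 14.2 in the p21Het libraries, 15.6, 14.8, 15.9, 17.9 and 16.8 in the p21mTert libraries, and 58.0 and 25.4 in the p21mTertCD libraries. Both p21mTertCD libraries were above every p21mTert library (log2 -1.43, SE 0.26, edgeR adjusted p = 0.104; DESeq2 called it; -0.75 without p21mTertCD_1). Ccnb1 in T cells was at 2.61 in WT, 4.85, 4.04 and 3.77 in the p21Het libraries, 3.21, 2.73, 3.95, 3.83 and 2.94 in the p21mTert libraries, and 13.1 and 4.94 in the p21mTertCD libraries (p21mTert minus p21mTertCD, log2 -1.48, SE 0.30, edgeR adjusted p = 0.126; -0.66 without p21mTertCD_1). For both genes p21mTertCD_2 lay much closer to the other groups than p21mTertCD_1. DESeq2 also called Cdk1, Cenpf and Ccna2 for this contrast, and Ube2c and Ccna2 for p21mTertCD minus p21Het. Ccna2 had the smallest p for the latter (log2 1.24, SE 0.33, edgeR adjusted p = 0.129; 0.54 without p21mTertCD_1).

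Among the members that passed the filter on low counts, the direction seen in T cells was not found in every lineage. For p21mTertCD minus p21Het, 4 of the 25 members tested in NK cells were above 0 (median log2 -1.55, with 50 and 52 NK cells in the p21mTertCD libraries), 5 of 23 in epithelial cells (median -0.24) and 4 of 18 in endothelial cells (median -0.17). Without p21mTertCD_1 the medians were -2.38, -0.39 and -0.20, over the 28, 28 and 22 members that then passed the filter on low counts. Without p21mTertCD_2 they were -1.61, -0.47 and -0.46, over 28, 28 and 21 members. These medians are thus not over the same members as the full ones. A member could pass the filter through the libraries of any group, and the part of the filter in these medians was not tested. The p21mTertCD libraries held 2 cycling NK cells, 6 epithelial and 4 endothelial ones. Their mean cycling share was below that of p21Het in NK cells (2% beside 4.09%). It was above it in epithelial (1.07% beside 0.599%) and endothelial cells (0.469% beside 0.375%). In alveolar macrophages 22 of 37 were above 0 (median 0.09), 6 of 38 without p21mTertCD_1 (median -0.77) and 34 of 38 without p21mTertCD_2 (median 0.53). In monocyte-macrophages 25 of 35 were above 0 (median 0.05), 9 of 36 without p21mTertCD_1 (median -0.58) and 26 of 36 without p21mTertCD_2 (median 0.33). The difference between lineages was not tested. The shares of all genes above 0 in these lineages are not given beside the counts.

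In endothelial cells 18 of 38 members passed the filter on low counts, and 0 were called beside 0.0357%, 0.107% and 0.00892% of 11206 genes in the same order of contrasts, with 1, 0 and 1 at an unadjusted p under 0.05 beside 4.42%, 8.01% and 4.89% of genes. DESeq2 called 0 members in this and the other 4 lineages below, beside 0% to 0.592% of their genes. The member of smallest p for p21mTert minus p21Het was Birc5, at 1.01, 4.17 and 4.26 CPM in p21Het and 0, 0.675, 0.277, 2.07 and 0.438 in the p21mTert libraries (log2 -1.93, SE 0.72, edgeR adjusted p = 0.999). It rests on 50 UMIs in 11 libraries, and the groups overlapped. In epithelial cells 23 were tested and 0 called beside 0.0474%, 0.0316% and 0.0079% of 12657 genes, with 0, 1 and 1 at an unadjusted p under 0.05 beside 8.09%, 7.39% and 3.22% of genes. Hmgb2 had the smallest p there (log2 0.24, SE 0.11, edgeR adjusted p = 0.614), at 105, 81.7 and 108 CPM in p21Het and 104, 139, 113, 117 and 109 in the p21mTert libraries, and the groups overlapped. Among the wider lists, Cdkn1c, a CDK inhibitor related to p21, was called in epithelial cells as higher in p21mTert than in p21mTertCD (log2 1.04, SE 0.11, edgeR adjusted p = 0.00218). Without p21mTertCD_1 it was not called (log2 1.03, edgeR adjusted p = 0.0907), and without p21mTertCD_2 it was (log2 1.05, edgeR adjusted p = 0.0487). Cdkn1c was chosen for mention after its value was seen.

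In alveolar macrophages 37 members were tested and 0 called beside 0.01%, 0% and 0% of 9983 genes, with 0, 2 and 1 at an unadjusted p under 0.05 beside 4.42%, 4.77% and 1.54% of genes. Ube2c had the smallest p for p21mTert minus p21Het (log2 -1.15, SE 0.58, edgeR adjusted p = 0.944), at 23.8, 14.7 and 2.96 CPM in p21Het and 4.18, 7.66, 7.38, 3.83 and 6.59 in the p21mTert libraries, and the groups overlapped. In monocyte-macrophages 35 were tested and 0 called beside 0.00911%, 0.0729% and 0.1% of 10971 genes, with 0, 1 and 1 at an unadjusted p under 0.05 beside 5.06%, 6.93% and 3.47% of genes. Aurka led there, at 2.35, 3.71 and 2.81 CPM in p21Het and 0.957, 2.31, 1.68, 1.70 and 1.89 in the p21mTert libraries (log2 -0.76, SE 0.38, edgeR adjusted p = 0.955). Its p21mTert libraries all lay below its p21Het libraries, and the share of all genes with groups apart like this was not counted.

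In NK cells 25 members were tested and 0 called beside 0.0287%, 0% and 0% of 6965 genes, with 1, 1 and 0 at an unadjusted p under 0.05 beside 3.78%, 7.24% and 6.26% of genes. Mcm5 had the smallest p, at 42.3, 26.8 and 27.2 CPM in p21Het and 11.6, 16.3, 19.8, 14.9 and 22.0 in the p21mTert libraries (log2 -0.89, SE 0.32, edgeR adjusted p = 0.999). These groups did not overlap, on 147 UMIs in 11 libraries, and the share of all genes with groups apart like this was not counted. Hmgb2 led in T cells for the same contrast, at 529, 614 and 555 CPM in p21Het and 549, 730, 775, 789 and 902 in the p21mTert libraries (log2 0.40, SE 0.19, edgeR adjusted p = 1.00), with groups that overlapped.

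Cdkn1a and Tert, which did not choose the cycling cells, were compared between cycling and other cells of the same lineages within each library. Cdkn1a was at 163 CPM in cycling and 149 in other cells of WT. In p21Het it was at 236, 190 and 217 in cycling and 171, 160 and 137 in other cells, in p21mTert at 121, 134, 97.0, 140 and 111 against 96.5, 98.9, 77.5, 113 and 89.9, and in p21mTertCD at 178 and 83.4 against 140 and 75.1. Cdkn1a RNA was higher in cycling cells in 11 of 11 libraries. The mean difference was 0.34 on the log2(CPM + 1) scale (SD 0.15, exact sign-flip permutation p = 9.77e-04, the smallest possible, adjusted p = 0.00195 over 2 tests). The result rests on the lineage weighting: without it the mean was 0.01 (exact permutation p = 0.927). The weighting did not match subsets within a lineage, such as the T cell subsets above, which differed in cycling share. The part of subsets was not tested. Cycling cells also had more UMIs per cell than other cells in every lineage, as in T cells with medians of 9278 and 5885, and the part of depth was not tested. With a stricter rule of 4 or more UMIs for cycling cells the mean difference was 0.66.

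Tert was at 1.56 ± 0.836 CPM in cycling and 1.49 ± 0.673 in other cells (SD, n = 11), on 34 UMIs in cycling cells. The mean difference was 0.01 on the log2(CPM + 1) scale (exact sign-flip permutation p = 0.978), higher in 7 and lower in 4 libraries. No difference in Tert was detected on these few UMIs, and how large a difference they could show was not tested.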

How the data were processed

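The authors deposited UMI counts per gene and cell barcode, as 1 matrix for each of 11 libraries. Cell Ranger wrote them: per the file headers the version was 3.1.0, whereas the series text names another version, and the build was mm10, per the submitters' processing notes. All values given here were computed from these counts. The 38 members and the wider lists were chosen with earlier results of these data known.

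Barcodes were kept when they held 1000 to 30000 UMIs, of which no more than 14% were mitochondrial. Lineages were gated on 8 markers each, with at least 3 detected. Counts were summed per library and lineage and tested with edgeR 4.0.16 (quasi-likelihood, TMM, Benjamini-Hochberg adjustment over all genes tested, R 4.3.3). DESeq2 1.42.0 was an alternative. The 10 mutant libraries entered the fits, and WT with 1 library entered no comparison of genotypes. Comparisons within libraries, of lineages and of cycling with other cells, used all 11 libraries. Cycling shares were compared by 2-sided exact permutation tests over libraries in Python 3.11.15 (numpy 2.4.6, pandas 2.3.3). In a check on simulated data with 17433 genes (p21mTert against p21Het), edgeR recovered 43% of 100 genes changed 2-fold and 95% of 100 changed 4-fold, with 5 false calls. The coefficient of variation of the members over the 10 mutant libraries ran from 9.97% for Pcna to 79.2% for Plk1. Recovery of such changes in the 38 members was not tested.

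Full values per library were given for Mki67 and Top2a, for members called in all kept cells, for the 3 members of smallest p in each contrast of all kept cells, and for Cdk1, Mcm5, Rrm2, Cdc20 and Stmn1. In lineages they were given for called members or else for the member of smallest p for p21mTert minus p21Het, and T cell Ube2c, Ccnb1 and Mcm6 were added after their values were seen. Alternatives changed the cycling rule, thinning, gate, normalization, filter and pseudocount, left out each library, used the later deposit alone or added a replicate block. Leaving out shared barcodes, same-numbered pairs and the T cell subsets were added after the data were seen.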

Additional observations from a re-analysis of the deposited data

Results flagged for a closer look

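In 4 of 24 groups of 4 to 10 libraries checked, 1 library lay far from the others of its group, and chance gives about 1 in 20 where groups are independent. These groups share libraries and cells, so that rate does not apply to the count. In p21mTert, replicate 3 stood apart in Mki67 (36.0 CPM, the others 13.5 to 19.8), Top2a (39.0, the others 15.4 to 21.6) and Mcm7 (22.2, the others 18.7 to 19.7). Mki67 and Top2a chose the cycling cells, so these values are not separate from its cycling share of 3.06%. Replicate 4 of p21mTert was the only library with a cycling mesenchymal cell, 1 cell or 0.336% of that lineage.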

How the results depend on the processing

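Differences in cycling share are percentage points, and nearly all are smaller than the spread between libraries. For p21mTert minus p21Het, the sign differed from the value above in all kept cells with 4 other genes (-0.0647) and the later deposit alone (-0.135). It also differed in epithelial cells at 1 or more UMIs (0.398), thinned (0.114) and with a gate of 4 markers (0.0314), in mesenchymal cells at 1 or more UMIs (-0.159), in alveolar macrophages at 1 or more UMIs (-0.624) and in the later deposit (-0.0476), in neutrophils at 1 or more (-0.377) and 4 or more UMIs (-0.208) and in the later deposit (-0.0710), in T cells at 4 or more UMIs (-0.0529), and in NK cells at 4 or more UMIs (0.257) and thinned (0.0655). For p21mTert minus p21mTertCD it differed in endothelial (0.104) and dendritic cells (-0.0833) when thinned, in epithelial cells at 4 or more UMIs (0.144) and thinned (0.114), in monocyte-macrophages with a gate of 4 markers (0.153) and in the later deposit (0.158), and at 1 or more UMIs in neutrophils (-0.213) and NK cells (-3.98). In endothelial cells at 1 or more UMIs the difference was -1.21 and passed 0.05. For p21mTertCD minus p21Het it differed in endothelial cells at 4 or more UMIs (-0.119), thinned (-0.246), with a gate of 4 markers (-0.0013) and in the later deposit (-0.0058), in epithelial (-0.248) and monocyte-macrophage cells (0.336) at 4 or more UMIs, in monocyte-macrophages thinned (0.214), in dendritic cells of the later deposit (-0.807) and in NK cells at 1 or more UMIs (1.69). The causes were not tested.

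Leaving out 1 library at a time gave these ranges. For p21mTert minus p21Het they were -0.254 to 0.731 in all kept cells, -0.187 to 0.0341 in endothelial, -0.451 to 0.20 in epithelial, -0.769 to 1.20 in alveolar macrophage, -0.316 to 0.114 in monocyte-macrophage, -0.124 to 0.309 in neutrophil, 0.0708 to 1.38 in T and 2.90 to 8.42 in dendritic cells. For p21mTert minus p21mTertCD they were -3.80 to -0.196 in all kept cells, -7.86 to 0.799 in alveolar macrophage, -0.231 to 0.158 in monocyte-macrophage, -1.29 to 2.71 in NK, -1.43 to 0.0163 in B and -5.58 to -0.126 in T cells. For p21mTertCD minus p21Het they were 0.356 to 3.96 in all kept cells, -0.0058 to 0.215 in endothelial, -0.136 to 1.08 in epithelial, -0.761 to 7.90 in alveolar macrophage, -0.238 to 0.147 in monocyte-macrophage, -0.416 to 0.0167 in neutrophil, -0.985 to 5.03 in dendritic, 0.801 to 6.25 in T and 0.691 to 2.13 in B cells. Members called in T cells ran from 0 to 18 for p21mTert minus p21mTertCD and from 0 to 17 for p21mTertCD minus p21Het, the highest without p21mTertCD_2. DESeq2 called 5 and 2 of them, and no filter on low counts 1 for the former.

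In the lineage order, alveolar macrophages minus plasma cells was -6.20 without thinning and -3.61 at 1 or more UMIs, B cells minus monocyte-macrophages -0.474 and -0.274, and neutrophils minus epithelial cells -0.284 without thinning. At 1 or more UMIs monocyte-macrophages minus erythroid cells was -1.49 and endothelial cells minus neutrophils -0.134. Of these reversed differences, alveolar macrophages minus plasma cells without thinning passed 0.05 (exact sign-flip permutation test, adjusted p = 0.0193). With the sign as reported, 7 neighbour differences passed an adjusted p of 0.05: dendritic cells minus alveolar macrophages, plasma minus T cells, NK minus B cells, monocyte-macrophages minus erythroid cells and epithelial minus mesenchymal cells without thinning, and NK minus B cells and neutrophils minus epithelial cells at 1 or more UMIs. Cdkn1a in cycling cells was 0.01 on the log2 scale without lineage weighting (0.0112, no longer past 0.05), and Tert was -0.14 with a pseudocount of 0.1 and -0.18 without weighting.

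Same-numbered libraries of different groups had correlations of -0.50 to 0.22 over 7 pairs, and 2 of 8 libraries correlated best with their own number, so the numbers were not taken as pairing. With a replicate block edgeR called 0 members in every contrast, and the same-numbered differences in cycling share were 0.276, -2.27 and 2.00 points in the order of contrasts above.

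Counts of all genes called varied by over 1.5 times between settings: in all kept cells 0 to 31, 0 to 587 and 0 to 182 (2, 1 and 21 as reported), and in T cells 0 to 13, 0 to 1102 and 0 to 1286 (4, 6 and 35).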
